A study of Mus musculus with 12 samples.

Results

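The histone genes of the replication clusters supply the bulk of the histone protein that a dividing cell needs. They were taken as every symbol of the count table that begins with Hist followed by a cluster number from 1 to 4 and the letter h, provided it had at least 10 counts summed over the 12 libraries. Of 31301 gene symbols in the table, 68 had such a name and 64 passed the minimum. These 64 members comprised 5 genes of the linker histone H1, 18 of H2A, 17 of H2B, 12 of H3 and 12 of H4. In the GENCODE M21 annotation of the GRCm38 assembly, 53 of them lie on chromosome 13 (names beginning with Hist1), 10 on chromosome 3 (Hist2) and 1 on chromosome 11 (Hist3). All but 1 were annotated as coding genes, the exception being Hist1h2al, a processed pseudogene of H2A. The 4 symbols under the minimum were Hist4h4 (8 counts), Hist3h2ba (7 counts), Hist3h2bb-ps (4 counts) and Hist1h2aa (2 counts).

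The libraries were made from bone marrow-derived basophils (BMBAs), granulocytes grown in culture from marrow of wild-type C57BL/6J mice over 7 days. The cytokine was either interleukin-3 (IL-3) at 0.3 ng/mL or thymic stromal lymphopoietin (TSLP) at 1 µg/mL per the treatment protocol of the labels, which give the TSLP dose in another unit elsewhere. The sort gave an immature stage, FcεRIαhi CD49blo, and a mature stage, FcεRIαlo CD49bhi. This gave 4 groups of 3 libraries each, and all groups share the strain, the genotype and the length of culture. The study compared maturation under either cytokine, and TSLP with IL-3 cells of the same stage. Cells that grow in culture stand in for basophils of the animal, and the sort gates, not division itself, define the stages.

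Total counts ran from 1720065 to 3685285 per library. The basophil genes Mcpt8, Cd200r3 and Fcer1a were detected in every library, and Clec12a, which the study uses as a marker of the immature stage, was higher in immature cells of both cultures. Mast cell genes other than Cpa3 stayed at or under 5.34 CPM (counts scaled to a common library total, with library sizes adjusted by the TMM method). The library TSLP mature 1 stood apart, with 154 CPM of the neutrophil granule gene Ngp and 70.1 CPM of the B cell receptor gene Cd79b, against at most 23.9 and 20.8 CPM in the other libraries. The summed level of 6 neutrophil lineage genes was 387 CPM there, against 13.1 and 8.62 in TSLP mature 2 and 3, and between 689 and 778 in IL-3 immature libraries, where Mpo (651 to 760 CPM) made up nearly all of it. It was 312 to 382 CPM in TSLP immature libraries, and the sum of 4 monocyte and macrophage genes was higher in mature than immature libraries of both cultures (95.6 to 143 against 11.3 to 15 CPM with IL-3, and 220 to 254 against 56.8 to 68.8 CPM with TSLP). The summed level of 6 B lineage genes was higher in all TSLP libraries (13.6 to 128 CPM) than in all IL-3 libraries (2.14 to 6.95 CPM), and the 2 of them that were tested were called higher with TSLP at the mature stage and over both stages, but not at the immature stage. The part of these other transcripts in the results on histone genes was not tested, so the counts of histone genes called are also given without TSLP mature 1.

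Histone genes of this kind are transcribed mainly in S phase, when newly replicated DNA has to be packed into nucleosomes, and their mRNA is degraded when replication stops. H2A, H2B, H3 and H4 form the core of the nucleosome, around which the DNA is wound, and H1 binds the linker DNA at its entry and exit. Most of these mRNAs have no poly(A) tail. They end shortly after a short stem-loop that is bound by the stem-loop binding protein Slbp and cut by a dedicated machinery that includes the U7 small nuclear ribonucleoprotein. Some of the genes can also give a longer, polyadenylated mRNA from a site downstream, a form described in cells that leave the cell cycle. The RNA of these libraries is labelled polyadenylated, and per the methods of the study it was captured on oligo(dT) beads. The counts therefore reflect both the amount of histone mRNA and how much of it such beads retain.

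The stem-loop was searched for in the GENCODE transcripts because it marks the end that lacks a tail. A motif of 16 bases, a stem of 6 base pairs closed by a loop of 4 bases, was found in 42 of the 64 members. The 3 most frequent forms are shown with the loop in capitals. The first was found in 24 members of classes H1, H2A, H2B and H3, the second in 6 members of H4 and the third in 5 members of H2B and H3.
H1, H2A, H2B and H3 form: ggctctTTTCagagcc
H4 form: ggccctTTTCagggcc
H2B and H3 form: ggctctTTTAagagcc

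What stands just before the stem-loop bears on capture by oligo(dT), since a run of A can anneal to it. The 12 bases before the stem-loop were a single run of A in 2 of the 42 members with the motif, Hist1h2ao and Hist1h2ap. These were the H2A members with the highest summed counts, 1435 and 797, but they share most of their sequence and are not separate instances. In the other members the longest run of A in this window was between 2 and 8 bases, with a median of 3. Among these, Hist2h2aa2 and Hist2h2aa1 had runs of 5 and summed counts of 779 and 721. The windows of 28 bases are shown for Hist1h2ao and Hist1h2ap, for another H2A gene of the same cluster and for Hist1h1c, with the longest run of A in capitals. They lie at chr13:21810886-21810913 on the plus strand, chr13:21833029-21833056 on the minus strand, chr13:22042483-22042510 on the minus strand and chr13:23739500-23739527 on the plus strand of GRCm38.
Hist1h2ao: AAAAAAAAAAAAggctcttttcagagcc
Hist1h2ap: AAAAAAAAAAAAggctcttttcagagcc
Hist1h2ag: atcgccaacAAAggctcttttcagagcc
Hist1h1c: aacaatccAAAAggctcttttcagagcc
Whether the run of A contributed to their counts was not tested.

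Promoters were compared because the members fall into groups that move together. RefSeq promoter sequences of GRCm38.p6, from 250 bases before to 50 bases after the start, were matched for 57 members. CCAAT, on either strand, was present in every matched promoter of H1 (5), H2A (16), H2B (15) and H3 (10), but in 3 of 11 of H4, against 37.9% of all 27025 promoters. TATAAA was present in 57.9% of the members and 14.2% of all promoters, and the octamer ATTTGCAT in 6 of 16 H2A and 6 of 15 H2B promoters, no H1, H3 or H4 promoter, and 1.8% of all. AAACACA, the H1 box, was present in 4 of 5 H1 promoters and 7.1% of all. The promoters of 3 genes that differ in their pattern below are shown, with matches to these motifs on either strand in capitals. Hist1h2ao (chr13:21810117-21810416, plus strand) was higher in immature cells, Hist1h1c (chr13:23738557-23738856, plus strand) in mature cells, and Hist2h2aa1 (chr3:96245247-96245546, plus strand) in IL-3 mature cells above all other groups.
Hist1h2ao: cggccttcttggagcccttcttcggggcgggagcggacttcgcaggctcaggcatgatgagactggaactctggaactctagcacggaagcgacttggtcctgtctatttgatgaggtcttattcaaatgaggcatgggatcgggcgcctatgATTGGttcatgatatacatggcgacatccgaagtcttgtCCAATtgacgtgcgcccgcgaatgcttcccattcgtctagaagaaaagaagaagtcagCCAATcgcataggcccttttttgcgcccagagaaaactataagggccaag
Hist1h1c: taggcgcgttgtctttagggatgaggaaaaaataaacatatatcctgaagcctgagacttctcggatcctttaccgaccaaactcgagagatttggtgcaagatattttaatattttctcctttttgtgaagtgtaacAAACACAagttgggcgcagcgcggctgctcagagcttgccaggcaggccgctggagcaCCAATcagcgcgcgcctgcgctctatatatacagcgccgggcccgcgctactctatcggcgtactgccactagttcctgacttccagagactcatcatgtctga
Hist2h2aa1: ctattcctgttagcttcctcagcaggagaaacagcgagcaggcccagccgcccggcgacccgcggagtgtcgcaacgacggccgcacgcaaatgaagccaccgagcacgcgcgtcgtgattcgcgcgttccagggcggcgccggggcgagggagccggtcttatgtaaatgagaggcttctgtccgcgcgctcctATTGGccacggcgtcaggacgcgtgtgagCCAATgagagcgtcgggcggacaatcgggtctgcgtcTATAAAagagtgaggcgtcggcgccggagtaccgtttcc
A match is a string of letters, and binding of a factor was not measured.

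Neighbouring copies are alike in sequence, which limits what can be said of a single gene. For each member, the share of its 50-base stretches that also occur in transcripts of other genes was counted, and its median was 73.2% in H2A, 62% in H3, 49.7% in H2B, 40% in H4 and 2.3% in H1. It reached 93.5% in Hist1h2ao and 93.1% in Hist1h2ap, which resemble each other, and 100% in Hist2h2aa2, which is shared with Hist2h2aa1 and the predicted gene Gm20634. How reads that fit several copies were assigned is not given in the sources used here. Levels of single H2A, H3 and H2B genes are therefore uncertain, and sums over a class are given beside them.

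Histone RNA as a whole was more abundant in immature cells. The 64 members summed to 839, 895 and 744 CPM in IL-3 immature libraries 1 to 3 and to 411, 420 and 480 CPM in IL-3 mature libraries. The sums were 695, 630 and 554 CPM in TSLP immature libraries and 401, 415 and 428 CPM in TSLP mature libraries. The stages did not overlap in either culture, and IL-3 immature libraries lay above TSLP immature ones, whereas the mature groups overlapped. As a share of all counts, the members took between 0.0387% (95% Wilson interval 0.0367% to 0.0408%, TSLP mature 3) and 0.101% (0.0959% to 0.105%, IL-3 immature 1), where the interval covers counting error only. In sorted bulk samples, fewer cells that transcribe histone genes and less histone RNA per cell cannot be told apart.

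The sums hide classes that behaved differently. H2A made up between 48.5% and 63% of all member counts in IL-3 immature libraries but between 13.1% and 18.6% in TSLP mature ones, whereas the linker histone gene Hist1h1c alone rose from between 6.59% and 9.56% to between 50.1% and 58.8% of the total. The ratio of summed H2A to summed H2B, which does not depend on how libraries are scaled to each other, was 9.91, 5.41 and 5.83 in the IL-3 immature group, 3.2, 3.71 and 3.19 in IL-3 mature, 1.97, 1.74 and 0.83 in TSLP immature and 1.42, 1.48 and 1.23 in TSLP mature libraries. All 6 IL-3 libraries lay above all 6 TSLP libraries. These ratios are over sums of the members and were given no test.

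**Figure D1:**
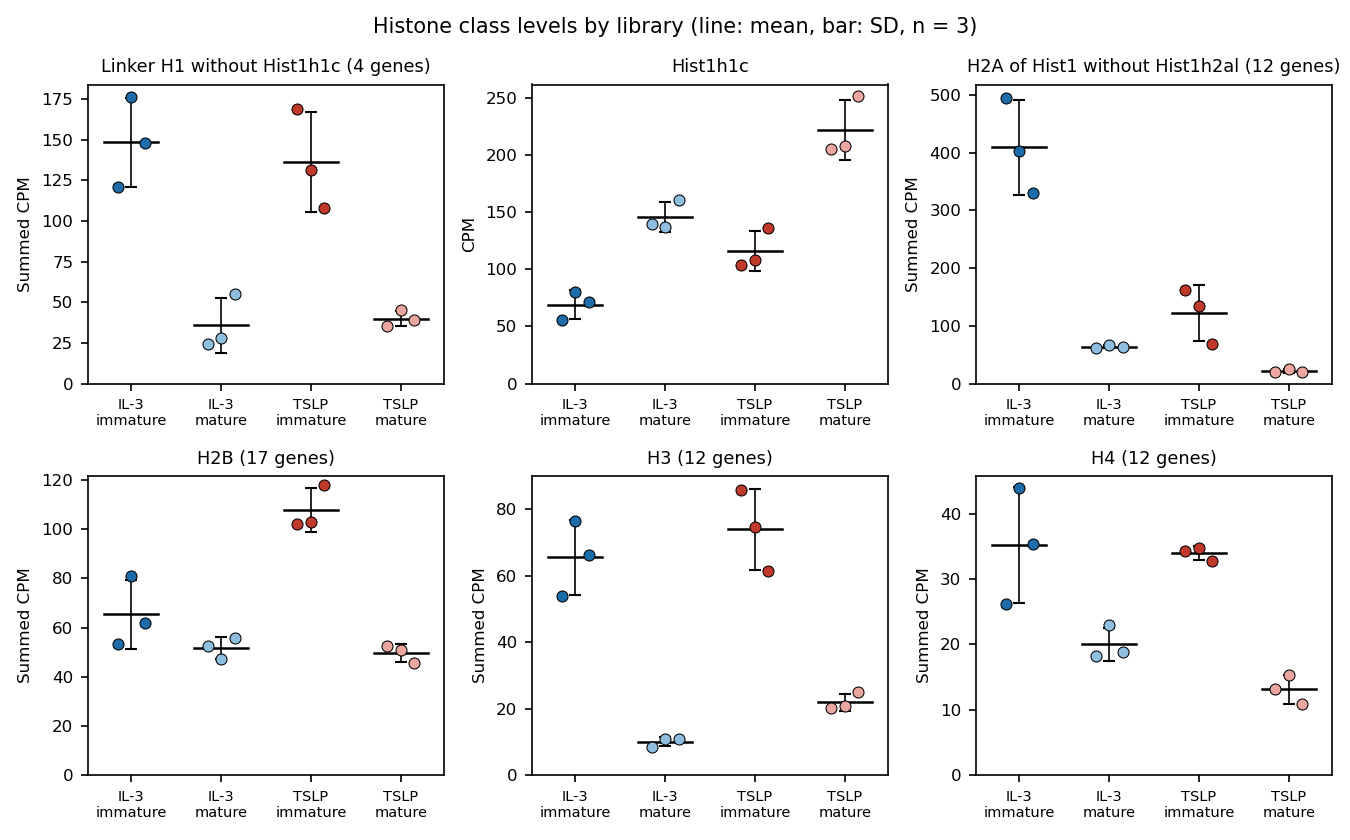
Summed CPM of histone classes (vertical axes, from 0) in the 12 libraries, by group (horizontal axes), where each point is a library, the line the mean and the bar the SD (n = 3). The 12 H2A genes of Hist1 are highest in IL-3 immature libraries (330 to 494 CPM) and Hist1h1c in TSLP mature libraries (205 to 252 CPM), and H2B is highest in TSLP immature libraries (102 to 118 CPM).

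Of the 64 members, 49 passed the filter on low counts and were tested in each comparison with edgeR's quasi-likelihood test, with p-values adjusted by Benjamini-Hochberg over 10861 genes. The other 15 were all H4 genes but Hist1h4d and Hist1h4i, Hist1h2ba, Hist1h2bj, Hist1h2bm, Hist2h2ab and Hist2h3b. Since a gene can pass the filter through 1 group alone, the counts below describe the tested members, not all of them. Members and background share each comparison, and the comparisons share groups with each other.

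With IL-3, 31 of the 49 tested members were higher in immature cells and 4 were lower. Over all genes, 46.2% were called in this comparison, 22.1% higher and 24.1% lower in immature cells. The median log2 fold change was 2.04 over the tested members and -0.06 over all genes tested. With TSLP, 34 members were higher and 2 lower in immature cells, where 25.1% of all genes were called, 12.2% higher and 12.9% lower. The medians were 1.7 over the members and -0.03 over all genes. Counted over all 64 members without a test, the 3 immature libraries lay above the 3 mature ones for 36 members with IL-3 and for 47 with TSLP, and below them for 4 and 1. Of 14845 genes with the same minimum of 10 counts, 22.8% lay above in this way with IL-3 and 15.1% with TSLP, and 26% and 17% lay below. Without TSLP mature 1, the calls in the TSLP comparison came to 37 of 50 tested members in place of 36 of 49. The share of all genes called was 31.4% in place of 25.1%.

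Among the linker histones, 4 of the 5 genes fell on maturation and Hist1h1c rose. Hist1h1a and Hist1h1b, which encode H1 subtypes of dividing cells, had the largest differences. Hist1h1b measured 23.3, 45.4 and 37.4 CPM in IL-3 immature against 1.07, 0 and 1.35 CPM in IL-3 mature libraries. In TSLP cells it measured 40, 25.8 and 19.4 CPM in immature and 0.809, 0.851 and 0.308 CPM in mature libraries. The stages were far apart in both cultures, with log2 fold changes of 5.46 ± 0.514 (SE, adjusted p = 3.5e-07) and 5.33 ± 0.5 (adjusted p = 1.17e-06). Hist1h1a measured 4.85, 4.86 and 5.3 CPM in IL-3 immature libraries and had no count in the 3 IL-3 mature libraries. Against a floor of 3 counts over the mature group, it was at least 13-fold higher at the immature stage. In TSLP cells 42 counts stood against 3, a ratio of 16.6 (95% interval 5.32 to 83.9, counting error only). Hist1h1e, a more abundant subtype, also fell on maturation, by log2 fold changes of 1.83 ± 0.283 with IL-3 and 1.61 ± 0.277 with TSLP in favour of immature cells (adjusted p = 6.79e-05 and 0.000476). For Hist1h1d, the values were 1.16 ± 0.302 and 1.00 ± 0.274 (adjusted p = 0.00496 and 0.0133), and in the IL-3 culture the highest mature library (16.7 CPM) reached above the lowest immature one (16.5 CPM).

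Hist1h1c, the member with the highest count (5068 summed) and a gene long known to be expressed outside S phase too, went the other way. It measured 55.3, 80.3 and 71.2 CPM in IL-3 immature against 140, 137 and 161 CPM in IL-3 mature libraries. In TSLP cells it measured 104, 108 and 136 CPM in immature and 205, 208 and 252 CPM in mature libraries. Every mature library lay above every immature library of its culture, and at each stage every TSLP library lay above every IL-3 library. The log2 fold change of immature against mature was -1.08 ± 0.186 with IL-3 (adjusted p = 0.000191) and -0.93 ± 0.182 with TSLP (adjusted p = 0.00134). In TSLP against IL-3 cells it was 0.60 ± 0.181 at the mature stage (adjusted p = 0.0249) and 0.74 ± 0.186 at the immature stage (adjusted p = 0.0155). Leaving out 1 of several single libraries ended these last calls, with values between 0.45 and 0.61 where the mature call was lost. Its GENCODE transcript runs on for 840 bases after the stem-loop and has a poly(A) signal in its last 50 bases. Hist1h1c thus made up between 31.3% and 32.4% of H1 counts in IL-3 immature against between 74.5% and 85.2% in IL-3 mature libraries.

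The H2A genes split into groups with opposite patterns. The first, chosen after the values were seen, holds the 12 H2A genes of Hist1 without the pseudogene Hist1h2al. Its sum was 494, 403 and 330 CPM in IL-3 immature against 61.3, 67 and 63.1 CPM in IL-3 mature libraries. In TSLP cells it was 162, 135 and 68.8 CPM in immature and 19.2, 25.5 and 19.1 CPM in mature libraries. The groups did not overlap at either stage or in either culture, except that TSLP immature 3, at 68.8 CPM, came close to the IL-3 mature libraries. The mean in IL-3 immature cells was 6.41 times that in IL-3 mature cells, and with TSLP the ratio was 5.73. Each of the 12 genes was called higher in immature cells in both cultures, with log2 fold changes from 1.79 to 3.97 with IL-3 and from 1.27 to 3.32 with TSLP.

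Hist1h2ao, the H2A member with the highest count, may serve as the example. It measured 123, 134 and 96.3 CPM in IL-3 immature against 15, 17.8 and 21.6 CPM in IL-3 mature libraries, and 40.6, 33.6 and 9.87 CPM in TSLP immature and 3.78, 4.82 and 0.615 CPM in TSLP mature libraries. IL-3 immature libraries were the highest and TSLP mature ones the lowest, and TSLP immature 3 lay below all IL-3 mature libraries. The log2 fold change of immature against mature was 2.70 ± 0.402 with IL-3 (adjusted p = 4.56e-05) and 3.15 ± 0.497 with TSLP (adjusted p = 0.000218). Hist1h2ap, whose transcript shares nearly all its sequence with Hist1h2ao, showed 2.66 ± 0.391 and 2.28 ± 0.494 (adjusted p = 4.02e-05 and 0.00302). Hist1h2ac, with the least shared sequence in this group (14.1%), had the smallest differences of the 12, 1.79 ± 0.413 with IL-3 (adjusted p = 0.00213) and 1.27 ± 0.446 with TSLP (adjusted p = 0.0477).

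The second group of H2A genes was highest in IL-3 mature cells. It consists of Hist2h2aa1 and Hist2h2aa2, which lie on chromosome 3 on opposite strands (chr3:96245497-96246082 and chr3:96239749-96240276), and of Hist1h2al (chr13:51202727-51203065), whose stretches match the same predicted gene, so the 3 are not separate measurements. Hist2h2aa1 measured 10.2, 12 and 12.9 CPM in IL-3 immature against 41, 39.3 and 41.5 CPM in IL-3 mature libraries, and 15.3, 15.6 and 11.2 CPM in TSLP immature and 17.8, 18.7 and 14.8 CPM in TSLP mature libraries. IL-3 mature libraries stood above all others, which lay close to each other. The log2 fold change of immature against mature was -1.78 ± 0.2 with IL-3 (adjusted p = 2.41e-06) and -0.28 with TSLP, which did not pass the test (adjusted p = 0.332). For Hist2h2aa2 the values were -2.24 ± 0.258 (adjusted p = 3.15e-06) and -0.71 ± 0.253 (adjusted p = 0.0497). The latter missed the threshold in most alternatives tried, for example without TSLP mature 1, at -0.42 (adjusted p = 0.242), and without TSLP immature 3, at -0.42 (adjusted p = 0.297). Hist1h2al showed -2.42 ± 0.35 with IL-3 (adjusted p = 3.52e-05).

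The H3 genes were lower in mature cells of both cultures. Their sum was 53.9, 76.3 and 66.2 CPM in IL-3 immature against 8.55, 10.9 and 10.8 CPM in IL-3 mature libraries, and 85.7, 74.6 and 61.3 CPM in TSLP immature and 20.2, 20.7 and 24.9 CPM in TSLP mature libraries. The stages were well apart, and every TSLP mature library lay above every IL-3 mature library. Of 11 tested H3 genes, 10 were higher in immature cells with IL-3 and 8 with TSLP, and none was lower in either. Of all genes, 22.1% and 12.2% were higher. Hist1h3c, the most abundant H3 member, measured 13.1, 27.1 and 20.2 CPM in IL-3 immature against 0.712, 1.09 and 0.902 CPM in IL-3 mature libraries. In TSLP cells it measured 17.4, 18.4 and 6.13 CPM in immature and 1.08, 1.13 and 1.54 CPM in mature libraries. Its log2 fold changes were 4.44 ± 0.517 (adjusted p = 3.51e-06) and 3.45 ± 0.473 (adjusted p = 5.63e-05). Hist1h3b had the largest fitted difference among H3 genes with IL-3, but 41 counts stood against a single count, so the ratio of 37.1 has a 95% interval from 6.3 to 1500. Hist1h3f showed 4.06 ± 0.656 with IL-3 and 1.99 ± 0.489 with TSLP (adjusted p = 0.000101 and 0.00704). Hist1h3e did not follow the class with IL-3, at -0.30 (adjusted p = 0.541), and was slightly higher in immature cells with TSLP, at 0.80 ± 0.273 (adjusted p = 0.0425).

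The H2B genes changed less. Their sum was 53.4, 80.8 and 61.9 CPM in IL-3 immature against 52.4, 47 and 55.9 CPM in IL-3 mature libraries, where the groups overlapped. With TSLP it was 102, 103 and 118 CPM in immature and 52.6, 50.8 and 45.5 CPM in mature libraries, without overlap. Of 14 tested H2B genes, 4 were higher in immature cells with IL-3 and 8 with TSLP, and none was lower. Of all genes, 22.1% and 12.2% were higher, so the count with IL-3 is not far from that share. The members called with IL-3 were Hist1h2bb (2.52 ± 0.709), Hist2h2bb (2.68 ± 0.9), Hist1h2bk (2.04 ± 0.508) and Hist1h2bq (1.23 ± 0.447), chosen here because they are all that were called. The 3 most abundant H2B members, Hist1h2bc, Hist1h2bg and Hist1h2be, gave -0.48, -0.02 and 0.28 with IL-3 (adjusted p = 0.117, 0.966 and 0.522). With TSLP, Hist1h2be rose in immature cells by 1.10 ± 0.297 (adjusted p = 0.0124), whereas Hist1h2bc and Hist1h2bg gave 0.66 and 0.34 (adjusted p = 0.0549 and 0.395).

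**Figure D2:**
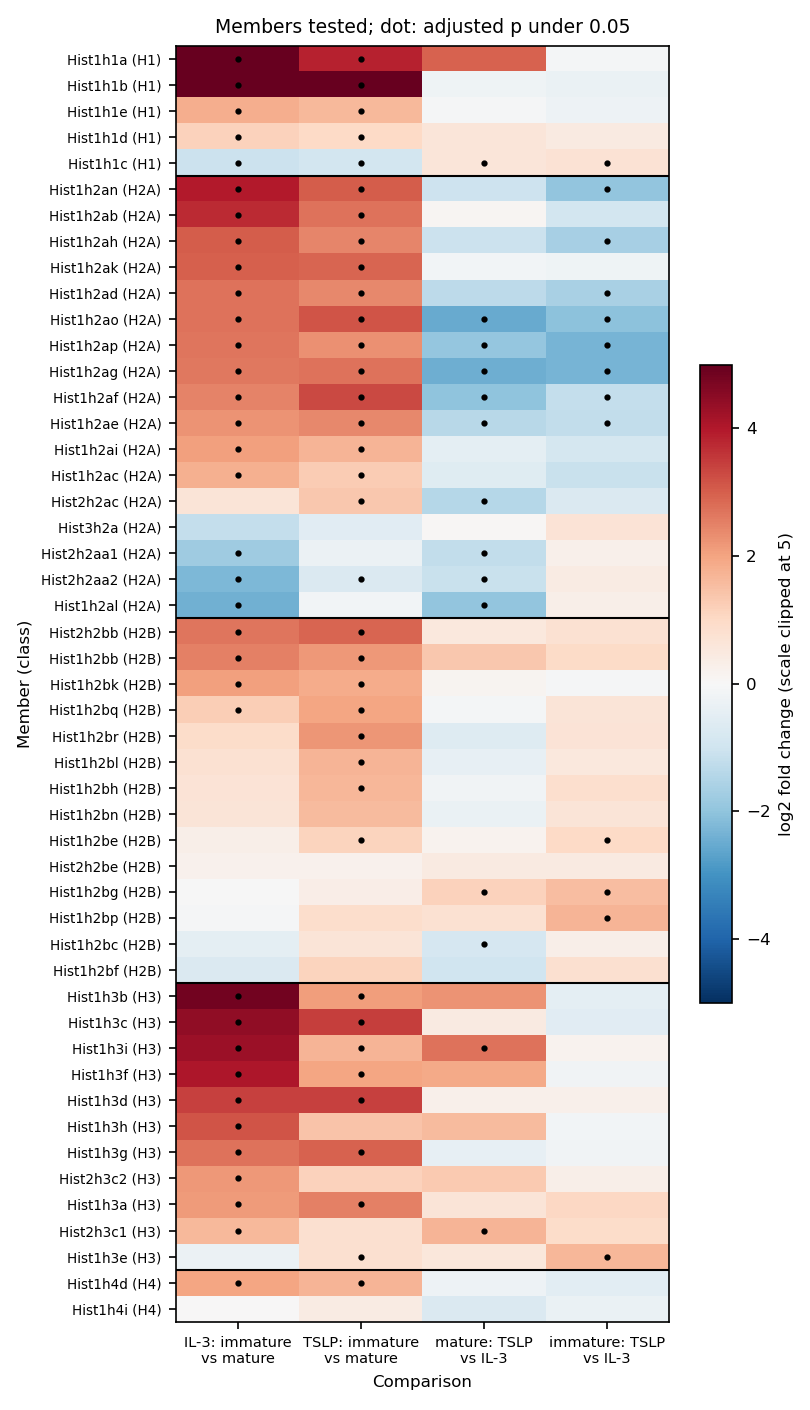
Log2 fold changes (colour, clipped at 5) of the 49 tested members (rows, by class and then by the IL-3 stage difference) in 4 comparisons (columns), with a dot where the adjusted p is under 0.05. Most H1, H2A and H3 genes are higher in immature cells of both cultures, and 5 (mature) and 8 (immature) of the 12 H2A genes of Hist1 without Hist1h2al are called lower with TSLP.

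Direct neighbours were compared next. H2A and H2B genes often lie head to head and start from a shared stretch of DNA, and 11 such pairs of members with starts at most 500 bases apart were found in GENCODE, 10 on chromosome 13 and Hist2h2ac with Hist2h2be on chromosome 3. Both genes were tested in 10 pairs. With IL-3 the log2 fold change of immature against mature was larger for the H2A than for the H2B gene in all 10, with medians of 2.68 for the H2A and 0.44 for the H2B genes. With TSLP it was larger for the H2A gene in 9 of 10, with medians of 2.4 and 1.35 and no pair of opposite sign. In TSLP against IL-3 mature cells, the H2A gene was the lower one in 8 and the higher one in 2, with medians of -1.18 and -0.21 and opposite signs in 4. In TSLP against IL-3 immature cells, the H2A gene was the lower one in all 10, with medians of -1.44 and 0.64, and the signs were opposite in 9. The differences between partners were given no test.

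As an example, Hist1h2ae and Hist1h2bg start 175 bases apart (gap chr13:23571221-23571395). Hist1h2ae measured 23.8, 16.6 and 15.9 CPM in the IL-3 immature group, 4.99, 3.28 and 3.16 in IL-3 mature, 10.2, 9.38 and 3.75 in TSLP immature and 1.08, 1.7 and 1.54 in TSLP mature libraries. Hist1h2bg measured 4.85, 6.86 and 4.97 CPM in the IL-3 immature group, 4.63, 4.37 and 8.57 in IL-3 mature, 12, 15.6 and 21.8 in TSLP immature and 12.7, 12.8 and 13.5 in TSLP mature libraries. Thus the H2A gene was highest in IL-3 immature cells and the H2B gene in TSLP cells of either stage. Summed over the 11 pairs, the ratio of H2A to H2B counts was between 6.09 and 10.6 in the IL-3 immature group, 1.35 and 1.67 in IL-3 mature, 0.655 and 2.02 in TSLP immature and 0.467 and 0.597 in TSLP mature libraries.

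**Figure D3:**
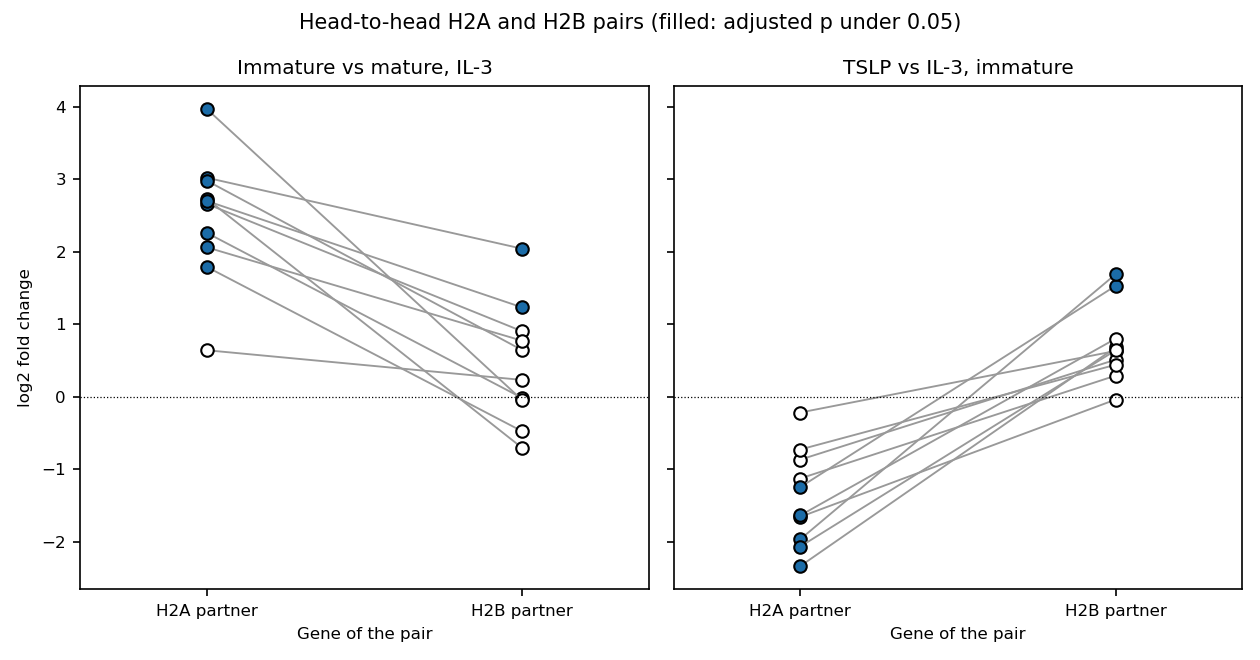
Log2 fold changes (vertical axis) of the H2A and the H2B gene of 10 head-to-head pairs, joined by lines, for immature against mature cells with IL-3 (left) and TSLP against IL-3 immature cells (right), with filled points where the adjusted p is under 0.05. On the left every H2A gene lies above its H2B partner (medians 2.68 and 0.44), and on the right every H2A gene lies below it (medians -1.44 and 0.64).

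The H4 genes had few counts, 908 over 12 genes and 12 libraries. Their sum was 26.2, 44 and 35.4 CPM in IL-3 immature against 18.2, 22.9 and 18.9 CPM in IL-3 mature libraries, and 34.3, 34.8 and 32.7 CPM in TSLP immature and 13.2, 15.3 and 10.8 CPM in TSLP mature libraries. Immature libraries lay above mature ones in both cultures. Hist1h4d was called higher in immature cells, by 1.96 ± 0.458 with IL-3 and 1.7 ± 0.46 with TSLP (adjusted p = 0.00235 and 0.0127). Hist1h4i, the H4 member with the highest count, gave 0.01 and 0.41 (adjusted p = 0.984 and 0.463). The H4 genes that were not tested had between 25 and 64 counts each over all libraries, and the largest of them, Hist1h4m, measured 0.97, 2 and 2.32 CPM in IL-3 immature against 3.21, 1.82 and 1.35 CPM in IL-3 mature libraries. Hist1h4f, another, measured 1.46, 2.29 and 2.65 CPM in IL-3 immature against 0.356, 0 and 0 CPM in IL-3 mature libraries. All immature libraries lay above all mature ones for 4 of these 10 H4 genes with IL-3 and for 5 with TSLP, and below them for none. Of all genes with at least 10 counts, 22.8% lay above in this way with IL-3 and 15.1% with TSLP. Without the filter on low counts all 64 members were tested, and 39 in place of 35 were called between stages with IL-3 and 37 in place of 36 with TSLP. Of the 14845 genes in that fit, 34.4% were called with IL-3 and 18% with TSLP. Of the untested genes outside H4, Hist2h3b had 19 counts in IL-3 immature against none in IL-3 mature libraries, at least 5.73-fold higher against the floor, and Hist1h2bj had 29 against 3. Hist1h2bm measured 0.97, 2.29 and 2.65 against 0, 0 and 0.451 CPM. Not all went this way, since Hist2h2ab measured 0.97, 0.286 and 0.331 against 1.78, 1.09 and 0.902 CPM. Hist1h2ba measured 0.485, 0 and 0.662 against 0.712, 0 and 0.451 CPM.

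TSLP was compared with IL-3 at each stage. At the mature stage, 4 of 49 tested members were higher and 10 lower with TSLP, where 24.3% of all genes were called, 12.4% higher and 11.9% lower. At the immature stage, 5 were higher and 8 lower, where 13.3% of all genes were called, 7.38% higher and 5.9% lower. The share of tested members called was 28.6% at the mature stage, close to that over all genes, and 26.5% at the immature stage. The members called lower were mostly H2A. Of 17 tested H2A genes, 9 were lower with TSLP at the mature and 8 at the immature stage, and none was higher. At the mature stage, 8, 7 and 8 of 50 tested members were called without IL-3 mature 1, IL-3 mature 2 or TSLP mature 3. The share of all genes called fell too, to 16.9%, 14.8% and 17.3%, and the counts of members lie near these shares. Without TSLP mature 1, 14 members and 26.9% of all genes were called. In the immature comparison, 8 members were called without TSLP immature 3, the library with the lowest H2A sum of its group. Of all genes, 5.32% were called in that fit.

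In the H2A genes of Hist1, the mean summed level of IL-3 cells was 3 times that of TSLP cells at the mature stage and 3.36 times at the immature stage. All 12 had negative log2 fold changes at the immature stage, from -2.34 to -0.22, and 11 of 12 at the mature stage. Hist1h2ao was lower, at -2.51 ± 0.518 at the mature stage (adjusted p = 0.00336) and by -2.07 ± 0.382 at the immature stage (adjusted p = 0.00253). Hist1h2ag was lower, at -2.45 ± 0.553 and -2.34 ± 0.368 (adjusted p = 0.00574 and 0.000788), and Hist1h2ap at -1.95 ± 0.513 and -2.34 ± 0.376 (adjusted p = 0.0127 and 0.000898). Hist1h2ak and Hist1h2ab, with the same stage pattern, gave values near 0 at the mature stage (-0.14 and 0.10, adjusted p = 0.894 and 0.924). These genes are named after their values were seen. Hist1h2af was lower at the mature stage by -2.02 ± 0.529 (adjusted p = 0.0126).

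The members higher with TSLP were few and belonged to H1, H2B and H3. Of all genes, 12.4% were higher at the mature and 7.38% at the immature stage, and the counts of members are not far from these shares. At the mature stage they were Hist1h1c, Hist1h2bg (1.17 ± 0.311, adjusted p = 0.0132), Hist1h3i (2.72 ± 0.796, adjusted p = 0.0216) and Hist2h3c1 (1.7 ± 0.54, adjusted p = 0.0316). Hist1h3i measured 0.356, 0.364 and 0 CPM in IL-3 mature and 1.35, 1.13 and 3.38 CPM in TSLP mature libraries, and its 20 counts against 2 give a ratio of 7.41 with a 95% interval of 1.8 to 65.4. At the immature stage they were Hist1h1c, Hist1h2be (1.00 ± 0.302, adjusted p = 0.0382), Hist1h2bg (1.53 ± 0.305, adjusted p = 0.004), Hist1h2bp (1.69 ± 0.477, adjusted p = 0.0281) and Hist1h3e (1.67 ± 0.303, adjusted p = 0.00226). Without IL-3 immature 1 or TSLP immature 3, 2 members in place of 5 were called higher, and Hist1h2be lost its call in most fits that left out a library and in DESeq2 (adjusted p = 0.0682), as did Hist1h2bp in DESeq2 (adjusted p = 0.0506). Apart from Hist1h1c, Hist1h2bg was the gene higher with TSLP at both stages. Without IL-3 mature 1 or IL-3 mature 2, none of the 4 calls at the mature stage remained. Hist1h2bc was lower in TSLP mature cells, at -0.85 ± 0.241 (adjusted p = 0.0185), and Hist2h2aa1, Hist2h2aa2 and Hist1h2al at -1.24 ± 0.189, -1.12 ± 0.233 and -1.99 ± 0.323 (adjusted p = 0.000524, 0.00367 and 0.000835).

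Averaged over both stages, 6 members were higher and 12 lower with TSLP, where 30.9% of all genes were called, 17.3% higher and 13.6% lower. All 12 that were lower belong to H2A. Hist1h2ag, Hist1h2ao and Hist1h2ap had the largest differences, -2.39 ± 0.329, -2.29 ± 0.32 and -2.14 ± 0.316 (adjusted p = 0.000106, 0.000117 and 0.000177). Hist1h3i, Hist1h2bg and Hist2h3c1 had the largest in the other direction, 1.44 ± 0.45, 1.35 ± 0.217 and 1.30 ± 0.339 (adjusted p = 0.0235, 0.000351 and 0.00873).

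The difference of the stage effect between the cytokines was tested as an interaction. It was called for 3 of 49 tested members, all positive. This share is close to that over all genes, of which 4.19% were called, 2.15% positive and 2.04% negative. These were Hist2h2aa1 (1.5 ± 0.284, adjusted p = 0.007), Hist2h2aa2 (1.53 ± 0.363, adjusted p = 0.0248) and Hist1h2al (2.30 ± 0.524, adjusted p = 0.0202), the genes with shared sequence that were high in IL-3 mature cells. Their summed level was 24.7, 25.1 and 22.2 CPM in the IL-3 immature group, 99, 98 and 103 CPM in IL-3 mature, 32.2, 35.2 and 23.2 CPM in TSLP immature and 48, 44.5 and 32.3 CPM in TSLP mature libraries. The mature level was 4.17 times the immature one with IL-3 and 1.38 times with TSLP. For no gene of the other H2A group was the interaction called, and their median was -0.36. In H3 genes the values were mostly negative, with a median of -1 over 11 genes, but none passed the test.

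Rn7sk and Rmrp, which lack a poly(A) tail, were set beside the histone genes for their level in TSLP libraries, which is why they were chosen and is no finding. Rn7sk, the RNA that holds the elongation factor P-TEFb inactive, measured 25.2, 40.9 and 37.1 CPM in IL-3 immature against 31.7, 42.6 and 95.2 CPM in IL-3 mature libraries. In TSLP cells it measured 155, 149 and 212 CPM in immature and 38, 150 and 240 CPM in mature libraries. Rmrp, the RNA of the RNase MRP complex that acts on ribosomal RNA precursors, measured 3.4, 10.9 and 8.28 CPM in IL-3 immature against 7.84, 2.55 and 10.4 CPM in IL-3 mature libraries. In TSLP cells it measured 34.3, 26.2 and 44.9 CPM in immature and 7.82, 19.9 and 32.3 CPM in mature libraries. TSLP mature 1 lay within the range of the IL-3 mature libraries for both RNAs, and the other 5 TSLP libraries lay above all IL-3 libraries. The log2 fold change of TSLP against IL-3 at the immature stage was 2.31 ± 0.498 for Rn7sk and 2.15 ± 0.472 for Rmrp, and neither gene passed the test between stages in either culture.

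The histone classes can be read beside these RNAs. In TSLP immature against IL-3 immature cells, Rn7sk and Rmrp were higher while the H2A genes of Hist1 were lower, and H1 without Hist1h1c (121, 176 and 148 against 169, 131 and 108 CPM) and H4 overlapped. Between the 3 TSLP mature libraries, Rn7sk differed from 38 to 240 CPM, whereas the 64 members summed to 401, 415 and 428 CPM. This sum joins parts that differed, since Hist1h1c measured 205, 208 and 252 CPM in TSLP mature 1 to 3. The 63 members without it summed to 196, 207 and 176 CPM. Hist1h1c and H2B were the classes that were higher with TSLP at the immature stage, as Rn7sk was. Within the TSLP immature group, library 3 had the highest Rn7sk (212 CPM) and Rmrp and the lowest sum of Hist1 H2A genes (68.8 CPM), and it had the highest H2B sum (118 CPM). Of 13 RNAs without poly(A) tails in the table, 8 were tested, among them Rn7sk and Rmrp, which were chosen for being higher with TSLP. Of the 8, 7 were higher with TSLP at the immature stage and 2 at the mature stage. Over all genes, 7.38% and 12.4% were higher. Rmrp, 1 of the 2, lost its mature call in several alternatives, for example without IL-3 mature 2 (adjusted p = 0.172). The summed level of these RNAs, nearly all of it the ribosomal precursor Rn45s and Rn18s, was between 110000 and 197000 CPM in IL-3 immature against between 312000 and 389000 CPM in TSLP immature libraries. The part of such RNA in the histone levels was not tested. With scaling factors recomputed without it and without the members, 35, 38, 14 and 13 members were called in the 4 pairwise comparisons, against 35, 36, 14 and 13. The shares of all genes called in that fit were 45.9%, 25%, 23.6% and 13.2%.

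**Figure D4:**
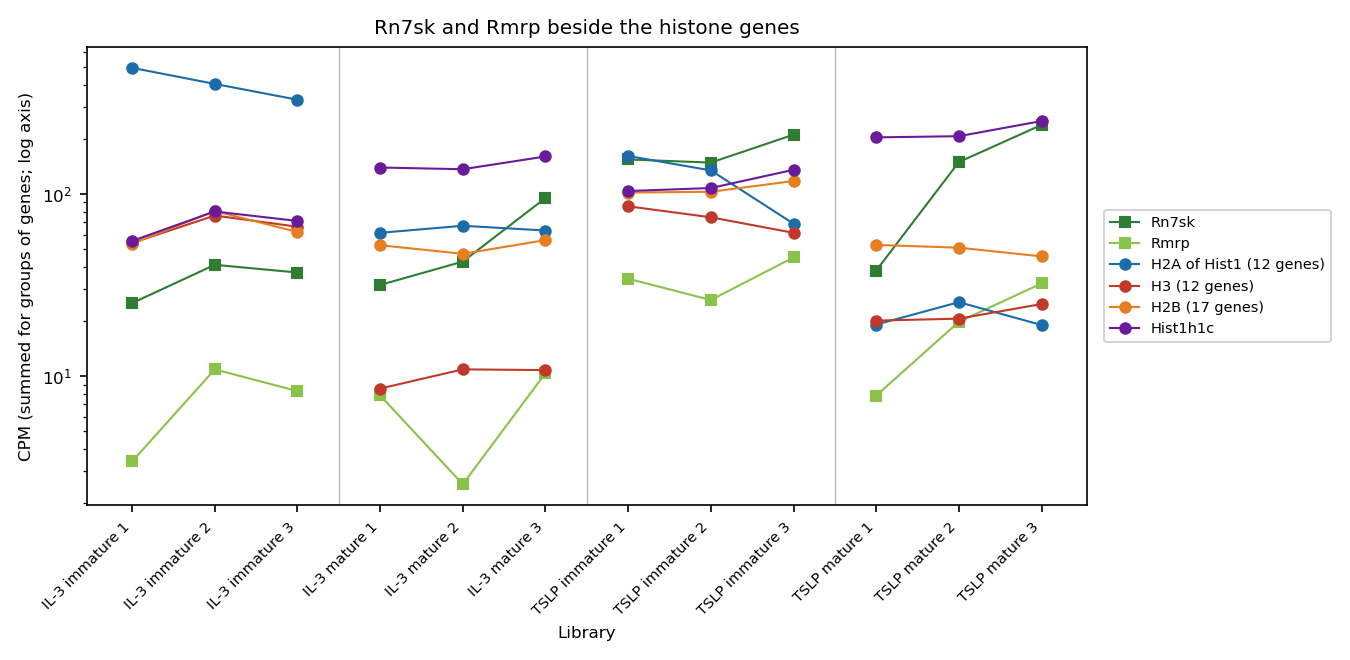
CPM (log axis) of Rn7sk, Rmrp and Hist1h1c, and summed CPM of the H2A genes of Hist1, H2B and H3, in each of the 12 libraries, with lines joining libraries of a group, whose numbers have no order. Rn7sk goes from between 25.2 and 40.9 CPM in IL-3 immature to between 149 and 212 CPM in TSLP immature libraries, whereas H2A goes from between 330 and 494 to between 68.8 and 162 CPM.

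Genes that are known to give polyadenylated histone mRNA too were counted apart. Of 5 listed, Hist4h4 was under the count minimum. Hist1h1c rose on maturation in both cultures, whereas Hist1h2bc, Hist2h2be and Hist3h2a were not called between stages (log2 fold changes from -1.20 to 0.23 with IL-3 and from -0.57 to 0.66 with TSLP). Split by the annotated transcript end, the 22 members with a stem-loop and under 100 bases after it had a median of 2.62 over 15 tested genes with IL-3. The 20 members with 100 or more bases after it had 1.39 over 16, and the 22 without a stem-loop 2.27 over 18. The same medians with TSLP were 2.28, 1.13 and 1.83. This split was chosen with values known and was given no test.

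Other genes that make, place or replace histones are listed for comparison. All 20 genes of a list of S phase genes, among them Pcna, Mcm5 and Rrm2, were higher in immature cells of both cultures, with medians of 4.45 with IL-3 and 2.33 with TSLP. Their summed level was 1730, 1670 and 1680 CPM in IL-3 immature against 177, 185 and 173 CPM in IL-3 mature libraries, and 1310, 1310 and 1270 CPM in TSLP immature and 386, 358 and 381 CPM in TSLP mature libraries. TSLP mature libraries lay above IL-3 mature libraries, as for H3 and in contrast to the H2A genes of Hist1. Of the S phase genes, 12 were higher and none lower in TSLP mature than IL-3 mature cells, where 12.4% of all genes were higher. The interaction was negative and called for 11 of them, against 2.04% of all genes.

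Of 11 genes of replacement and variant histones, which are made outside S phase as well and have poly(A) tails, 9 were tested. With IL-3, 6 were higher and 1 lower in immature cells, and with TSLP 5 and 1. Over all genes, 22.1% were higher and 24.1% lower with IL-3, and 12.2% and 12.9% with TSLP, for this and the following lists. H2afz rose in immature cells by 2.46 with IL-3 and 1.43 with TSLP, and H3f3b, a gene of H3.3, was lower, at -0.77 and -0.71. H2afv was lower with TSLP, at -1.38 at the mature stage and -1.30 at the immature stage, and H2afj at -1.16 at the mature stage, so that variant genes of H2A were among those lower with TSLP. H2afv measured 107, 115 and 55.5 CPM in TSLP immature libraries, again lowest in library 3, whereas H2afz measured 429, 393 and 431 CPM there. Of 13 genes of histone mRNA processing, 12 were tested. Of these, 7 were higher and 1 lower in immature cells with IL-3, where 46.2% of all genes were called. With TSLP the numbers were 4 and 0, where 25.1% of all genes were called. Slbp rose in immature cells by 1.32 with IL-3 and 0.68 with TSLP, and Npat, a coactivator of histone genes, by 0.98 and 1.32, whereas Lsm10 of the U7 particle was lower with IL-3, at -1.7. Of 16 histone chaperones, 13 were higher and 1 lower in immature cells with IL-3, and 9 and 0 with TSLP. Asf1b, which hands H3 and H4 to the assembly machinery, rose by 6.16 and 3.20, and Nasp, a chaperone of linker histones and H3, by 2.14 and 1.36. At the immature stage, Nasp was lower with TSLP, at -1.39 (adjusted p = 0.00251).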

How the data were processed

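Basophils from bone marrow cultures were profiled by RNA sequencing in 12 libraries, 3 in each of 4 groups taken from the sample titles. Per the study, each group holds 3 cultures, so p-values measure the spread between cultures. Per the methods of the study, reads were trimmed with Cutadapt, aligned with Bowtie2 to GRCm38 reference RNA and counted per gene, whereas the submitters' processing notes also name GRCm39 and mm10. The authors deposited raw counts, 1 column per library. The handling of multiple alignments, strand and molecular identifiers is not given in the sources used here. One unnamed row equal to the sum of the others (50% of each column) was left out. All 12 columns were mapped, and 0 were unused.

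Counts were filtered with filterByExpr (minimum count 10, minimum total 15), scaled by TMM and fitted with edgeR 4.0.16 in R 4.3.3 as 4 group means over all 12 libraries. The quasi-likelihood test was used with Benjamini-Hochberg adjustment over 10861 genes, and an adjusted p under 0.05 was called. Positive log2 fold changes denote the first-named group as the higher one, and a positive interaction a more positive immature minus mature difference with TSLP. Intervals are 95% and, with the floor of 3 counts over a group, cover counting error only. The code was tested on simulated counts. DESeq2 1.42.0, other scalings and filters, thinning, a replicate block and leaving out each library were tried. Histone transcripts were read from GENCODE M21 and promoters from RefSeq.

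The members and gene lists were chosen with earlier results of these data known. Genes named are the 3 most abundant members of each class, the 3 called members with the largest difference in each direction of each comparison, Rn7sk and Rmrp, the members that were not tested, and up to 4 genes of each list. Genes named beyond this were chosen after their values were seen.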

Additional observations from a re-analysis of the deposited data

Results flagged for a closer look

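The difference of the stage effect between cytokines was called for 3 of 49 tested members by the interaction test of edgeR (Benjamini-Hochberg over all genes tested). Over all genes, 4.19% were called. It was 1.5 on the log2 scale for Hist2h2aa1, 1.53 for Hist2h2aa2 and 2.30 for Hist1h2al. In each, the 3 IL-3 mature libraries were above the 9 others. The genes share most of their sequence, so the 3 values are not independent. The effect in Hist2h2aa1 kept its call without any single library, whereas that in Hist2h2aa2 and Hist1h2al lost it without 1 of several libraries, with adjusted p between 0.05 and 0.0925. The part of reads that fit several copies was not tested.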

How the results depend on the processing

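With a minimum of 10 CPM in 3 libraries, 22 members were tested in place of 49. Of them, 20 in place of 35 were called between stages with IL-3 and 18 in place of 36 with TSLP. The shares of all genes called in that fit were 50% and 28.1%. After thinning every library to the lowest total, 32 members were tested. Of these, 22 were called between stages with TSLP, where 22.7% of all genes were called. Between TSLP and IL-3 mature cells, 8 in place of 14 were called, against 20.9% of all genes. Leaving out 1 library at a time gave 32 to 36 members called between stages with IL-3, 31 to 39 with TSLP, 7 to 15 between mature, 8 to 16 between immature, 16 to 21 over both stages and 1 to 4 for the interaction. In the same order, the share of all genes called ran from 38% to 51.5%, 16% to 31.4% and 14.8% to 26.9%. For the last 3 it ran from 5.32% to 20.4%, 22.9% to 34.8% and 2.15% to 6.56%. The interaction fell to 1 without library 2 or 3 of IL-3 immature, library 2 of IL-3 mature, or library 1 or 2 of TSLP immature. Of 61 called values of named genes, none changed direction in the alternatives in which the gene was tested. Of them, 43 kept their call in every alternative in which the gene was tested. No scaling moved the median of all genes by more than 0.08 on the log2 scale.

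The replicate block, chosen with the replicate number of the labels, gave 35, 37, 14, 14, 19 and 3 members called in the 6 comparisons against 35, 36, 14, 13, 18 and 3 without it. Whether the numbers mark pairs could not be told. The correlations of same-numbered deviations from the group means were mostly positive, between -0.08 and 0.39, and those of unlike numbers lay between -0.31 and 0.27. Not every same-numbered pair in any comparison passed 0.1. In TSLP against IL-3 immature cells, every library correlated best with its own number. The values there were 0.09, 0.05 and 0.15, against -0.12 to 0.03 for unlike numbers. In each of the other comparisons, not every library did so. With the block, the share of all genes called rose in all 6 comparisons, for example from 13.3% to 17.4% between immature cells. The same block without the filter on low counts, chosen after seeing the data, gave 38, 38, 14, 14, 20 and 3. The shares of all genes called were then 36.1%, 20.5%, 19.1%, 12.3%, 24.9% and 3.66%.

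Depth limits H4 above all, since 10 of its 12 genes did not pass the filter on low counts.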

Other observations

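Small nuclear RNAs were looked at after the values of Rn7sk were seen. The 13 symbols that begin with Rnu summed to 60.2, 114 and 97.3 CPM in the IL-3 immature group, 102, 79.8 and 223 CPM in IL-3 mature, 284, 296 and 448 CPM in TSLP immature and 110, 348 and 556 CPM in TSLP mature libraries. TSLP mature 1 was again the lowest of the TSLP libraries, as for Rn7sk and Rmrp. The ratio of summed H3 to summed H4, both core histones with few counts, was between 1.73 and 2.06 in the IL-3 immature group, 0.471 and 0.571 in IL-3 mature, 1.88 and 2.5 in TSLP immature and 1.35 and 2.31 in TSLP mature libraries. IL-3 mature libraries were the only ones with a ratio under 1.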
